A study of Mus musculus with 8 samples.

Results

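TRBV29 is a variable gene of the mouse T cell receptor β chain locus, and its product is known in the older nomenclature as Vβ7. TRBV29 chains were taken as the barcodes that were not marked as multiplets and whose leading β chain was assigned to TRBV29, with a trailing copy number of the gene name ignored. They made up 14436 of the 188544 barcodes with a β (TRB) chain, or 7.66%, and 4919 of them also had an α (TRA) chain. Over the series they held 7200 different CDR3 amino acid sequences. The V gene call alone chose them, and TRBV29 was picked with earlier results on the same tables known, so its levels are a description and carry no test.

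CD8+ T cells were isolated from thymus, spleen and tumor, and their receptor chains were read with a split-pool single-cell method, in which a first-round well marks the cell suspension and later wells and a sublibrary separate the cells. The mice were on a C57BL/6 background and carried loxP-flanked Pdcd1, the gene of PD-1, without (Pdcd1fl/fl) or with (Pdcd1 cKO) an E8I CD8-Cre transgene, which acts in CD8 lineage cells; baseline mice gave thymus and spleen, and mice with B16-OVA or B16-F10 melanoma gave thymus and tumor. The 8 labelled samples are the 8 sublibraries, and each pools cells of every mouse. The 14 receptor tables are named by mouse and tissue (7 thymus, 2 spleen and 5 tumor tables of 7 mice), but the labels tie no genotype or tumor line to a mouse, so genotypes were not compared. The tables hold receptor chains and no marker genes, so the CD8+ label was not checked against markers. Between 5281 and 29894 non-multiplet barcodes per table had a TRB chain.

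Each β chain is built in the thymus by joining 1 V, 1 D and 1 J gene, with bases trimmed from the ends and others added without a template, and the junction encodes CDR3, the loop that touches the peptide. V genes are not used equally, and the V gene itself sets the other contact loops of the chain. In mice, Vβ7 is also known as one of the few β chains, beside those of the TRBV13 family (Vβ8) and TRBV1 (Vβ2), that pair with the invariant TRAV11-TRAJ18 α chain of natural killer T cells (NKT cells), which see lipids on CD1d.

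Trbv29 lies on the plus strand at chr6:41248328-41248815 (GRCm39), with exon 1 at chr6:41248328-41248385 and exon 2 at chr6:41248521-41248815. It is annotated as a functional V segment gene, upstream of the D, J and C genes. The last 17 bases of exon 2 (chr6:41248799-41248815) are the start of CDR3. They are shown with the recombination signal that follows, in which capitals mark the heptamer and the nonamer, together with both D genes, since these are the pieces against which the junctions below were read.
germline TRBV29: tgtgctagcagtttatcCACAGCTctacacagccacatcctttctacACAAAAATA
TRBD1: gggacagggggc
TRBD2: gggactgggggggc

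Some barcodes matched a barcode of another table and were kept in the main counts. No full barcode occurred in more than 1 table. However, 3933 of the 14436 TRBV29 barcodes (and 41202 of the 174108 others) had the same TRB chain, second-round well, third-round well and sublibrary as a barcode of another table, out of 73728 possible combinations of the latter 3. Chains found in more than 1 mouse made up between 46.1% and 87.9% of the TRBV29 barcodes of a table, and a larger share than among other TRB chains in 12 of 14 tables.

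The 5 TRBV29 CDR3s with most barcodes among those seen in all 7 mice each had 1 tumor as their main table. They are shown because 1 nucleotide sequence accounted for nearly all of the barcodes of each; capitals mark the bases between the part shared with germline TRBV29 and the part shared with the J gene.
chain 1 (TRBJ2-1): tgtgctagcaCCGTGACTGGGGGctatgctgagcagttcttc
chain 2 (TRBJ2-2): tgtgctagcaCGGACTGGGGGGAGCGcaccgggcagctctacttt
chain 3 (TRBJ2-7): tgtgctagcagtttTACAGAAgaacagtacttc
chain 4 (TRBJ1-1): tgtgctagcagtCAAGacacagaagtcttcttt
chain 5 (TRBJ1-2): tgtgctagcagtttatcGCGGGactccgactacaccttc
Chain 1 was read in 1048 barcodes, of which 568 lay in the tumor of mouse-164C and 480 in the other 13 tables, 13 to 80 in each. In that tumor 42.1% of its barcodes had a single TRB transcript and 32.0% had a TRA chain. Elsewhere 98.8% had a single transcript and 3.54% had a TRA chain, and 160 of the 480 matched a barcode of chain 1 in that tumor in both later wells and sublibrary. The nucleotide sequence was the same in 602 of the 603 barcodes for which it was held.

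The other 4 followed the same pattern. Chain 2 had 256 barcodes in the mouse-160B tumor and 105 elsewhere, of which 47 matched. Chain 3 had 210 in the mouse-160C tumor and 110 elsewhere, of which 48 matched. Chain 4 had 137 in the mouse-160A tumor and 126 elsewhere, of which 53 matched, and chain 5 had 104 in the mouse-164B tumor and 56 elsewhere, of which 19 matched. Between 33.3% and 44.8% of the outside barcodes of the 5 chains were matched in this way, and 94.4% to 99.1% of them rested on 1 transcript. How such barcodes arose was not tested. They stay in the values below, and the main directions are also given "without matching barcodes". In that setting the barcode with most transcripts of each match was kept unless tied. It left out 2585 of the 3933 matching TRBV29 barcodes. Outside barcodes of the 5 chains that had no match stayed in.

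**Figure D1:**
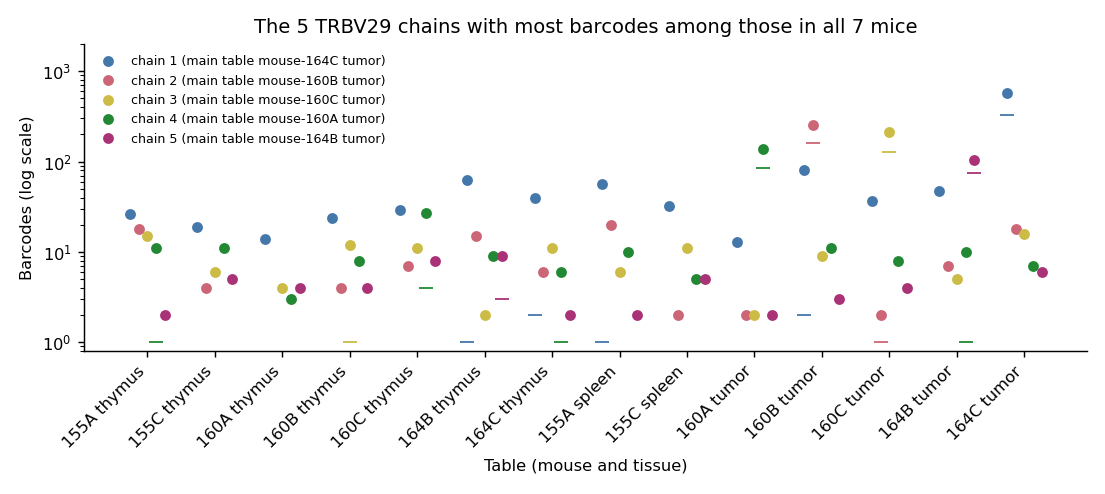
Barcodes (log scale) of 5 TRBV29 chains in each of the 14 tables. Chains 1 to 5 are those whose nucleotide sequences are given above. Dots give all barcodes and short bars those with at least 2 TRB transcripts. Each chain is highest in 1 tumor table, and outside it few or no barcodes reach 2 transcripts.

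A CDR3 with several nucleotide sequences was also seen in all 7 mice. This loop, joined to TRBJ2-7, was read in 32 barcodes. Like chains 1 to 5 it had a tumor as its main table, with 18 of the 32 in the mouse-160B tumor. It was encoded by 4 nucleotide sequences, of which the 3 found in several cells are shown beside the single sequences above. Capitals have the same meaning.
version 1: tgtgctagcagCCCAtatgaacagtacttc
version 2: tgtgctagcagtCcctatgaacagtacttc
version 3: tgtgctagcagtCCGtatgaacagtacttc
Version 1 was carried by 20 cells of 6 mice, version 2 by 5 cells of 4 mice and version 3 by 4 cells of 2 mice. These joins have at most 4 bases between V and J. Another loop with TRBJ2-7 had 6 nucleotide versions in 42 cells, but 1 version made up 83.3% of them. Only 2 of its versions were found in at least 2 cells. Its main table was the mouse-160A tumor, with 18 of 44 barcodes. Among the 13 TRBV29 CDR3s found in all 7 mice, the commonest version made up at least 98.9% of the cells in the remaining 11. At the other end, 5442 of the 7200 CDR3s (75.6%) were seen in 1 mouse only, and they covered 42.7% of the TRBV29 barcodes.

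TRBV29 was among the most used V genes in every tissue. Its share of TRB barcodes had a median of 7.33% over the 14 tables, the 4th highest of the TRBV genes. In the 7 thymus tables it ranged from 6.19% (mouse-164C) through a median of 7.16% to 7.85% (mouse-160A). The spleens had 8.66% (mouse-155A) and 8.56% (mouse-155C). Counted this way, both spleens were above every thymus. This did not hold in paired barcodes, where the spleens had 7.13% and 7.24% and the thymus of mouse-160A had 8.41%. With at least 2 TRB transcripts the mouse-155A spleen (7.20%) was also below that thymus (7.29%).

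In tumors the share was 8.30% in mouse-164C and 9.26% in mouse-164B, and of the remaining 3 mouse-160B had 9.33%, mouse-160C 5.48% and mouse-160A 7.38%. The tumors were thus spread on both sides of the thymus range, and the rank of TRBV29 among the V genes ran from 2nd to 9th. Compared within mice, TRBV29 was higher in the second tissue than in the thymus in 5 of 7 mice and lower in mouse-160A and mouse-160C. The exact 95% intervals, which cover counting error only, did not overlap in 5 of 7 mice, and mouse-160C was the one of these with the lower value. Of the 19 TRBV genes whose median share reached 1%, TRBV29 was the 1 gene that was higher in as many as 5 mice (5.26%). Without the matching barcodes the count was again 5 of 7, and 2 of the 19 genes then reached it. In paired barcodes alone TRBV29 was higher in 4 of 7 mice and lower in 3, with 7.24% in the spleen and 7.66% in the thymus of mouse-155C.

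Counting each distinct chain (V, J and CDR3) of a table once removed the weight of expanded clones, and the order became even. The thymus tables then ran from 5.93% to 7.35% with a median of 6.94%, the spleens had 8.02% and 8.52%, and the tumors 7.70% (mouse-164C), 7.95% (mouse-164B), 9.27% (mouse-160A), 7.39% (mouse-160C) and 7.98% (mouse-160B). The second tissue was higher in 7 of 7 mice, with intervals apart in 4 of them. The same held for 4 of the 19 genes (21.1%): TRBV14, TRBV15, TRBV16 and TRBV29. All thymus tables lay below all second-tissue tables for 2 of the 19 (10.5%), TRBV14 and TRBV29. Leaving out chains of several mice brought the thymus median to 6.08% and the count to 6 of 7 mice, the mouse-160C tumor being at 6.04% against 6.07% in its thymus. With at least 2 transcripts required for a distinct chain the count was also 6 of 7, and 7 of the 19 genes reached 6 or more mice under either setting. Without the matching barcodes the count by distinct chains was 7 of 7, reached by 4 of the 19 genes.

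**Figure D2:**
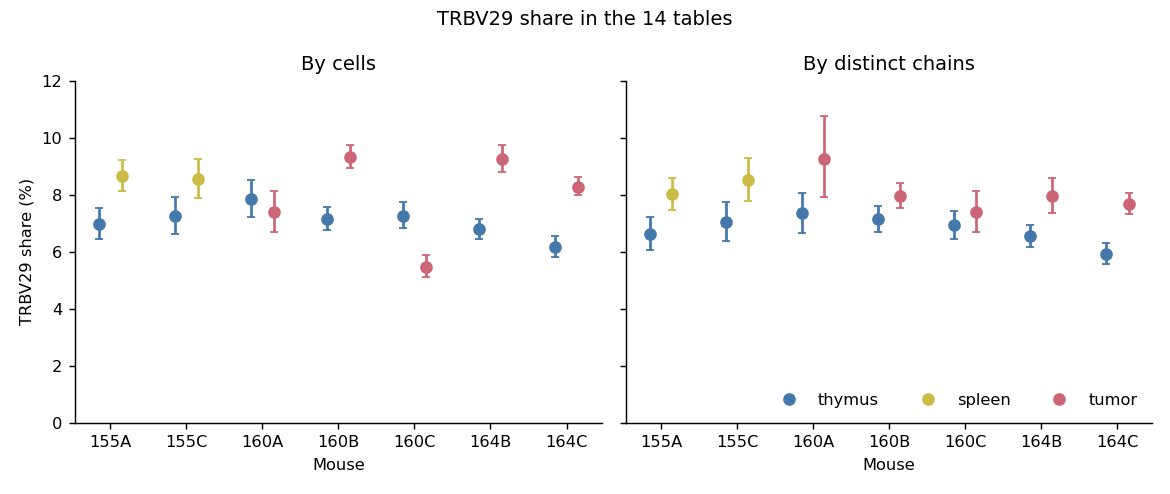
TRBV29 share of TRB barcodes (left) and of distinct TRB chains (right) in the thymus and the second tissue of each of 7 mice, in percent, with exact 95% intervals for counting error. By distinct chains every second-tissue value lies above the thymus of the same mouse, from 7.39% to 9.27% against 5.93% to 7.35%.

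Single chains carried much of the tumor counts. The leading TRBV29 chain of a tumor, which was 1 of the 5 shown above in each, made up 22.9% of the TRBV29 barcodes in mouse-164C (chain 1), 13.3% in mouse-160B (chain 2), 28.4% in mouse-160C (chain 3), 35.1% in mouse-160A (chain 4) and 7.74% in mouse-164B (chain 5). In the thymus tables the leading chain held 2.14% to 4.56% and was chain 1 in each, tied at 14 barcodes with a TRBJ2-7 chain in mouse-160A, although the main table of chain 1 is a tumor. Without its own leading chain each tumor had a TRBV29 share of 6.52%, 8.20%, 3.99%, 4.92% and 8.61% in the same order.

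The V gene also differed in how well its chains were read. TRBV29 barcodes had fewer TRB transcripts on average than the other TRB barcodes in 7 of 7 thymus tables (medians of 2.89 and 3.795) and in 11 of all 14. Counting transcripts in place of barcodes therefore lowered the thymus median to 5.83%, while the tumor median was 8.36%. A constant region was assigned to 10.5% to 21.3% of the TRBV29 barcodes and to 58.3% to 68.9% of the others, lower in all 14 tables. Such calls were uneven over the V genes: in the thymus the median was lower than that of TRBV29 (14.9%) for TRBV20 and TRBV1, and it was 90.8% for TRBV12-1 and 93.7% for TRBV16. Their part in the shares was not tested.

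The gene whose share moved most like that of TRBV29 was TRBV16, with a Pearson correlation of log2 shares of 0.65 over the 14 tables and a Spearman correlation of 0.39. TRBV12-2 (0.45) and TRBV17 (0.28) came next, with Spearman values of 0.21 and -0.03. The tables share sublibraries and shares sum to 100% within a table, so these values are descriptions.

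TRBV29 chains were joined to all 12 TRBJ genes that were seen. By distinct chains TRBJ2-7 was the most used, with a median of 17.5% over the 14 tables and a highest value of 24.1% in the mouse-164B tumor, against 18.8% among other TRB chains. TRBJ1-1 followed with 12.6% against 11.9%, and TRBJ2-5 with 11.97% against 10.9%. TRBJ2-7 was higher beside TRBV29 in 3 of 14 tables, TRBJ1-1 in 11 and TRBJ2-5 in 9.

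Differences in 1 direction over nearly all tables were found for other J genes, which were picked after their values were seen. TRBJ2-1 had a median of 11.03% against 13.5% and TRBJ2-4 one of 6.17% against 7.85%, both lower beside TRBV29 in 14 of 14 tables, and TRBJ2-3 one of 7.37% against 8.58%, lower in 13 of 14. These were the 3 of 12 J genes that were lower in at least 13 tables (25%). Without chains of several mice TRBJ2-1 was lower in 12 tables and TRBJ2-4 in 11, with at least 2 transcripts in 12 and 10, and without matching barcodes in 13 and 14. TRBJ1-2 (8.38% against 7.12%) and TRBJ1-4 (7.60% against 6.69%) were higher in 13 of 14 (2 of 12, 16.7%), and TRBJ1-2 in 11, 13 and 12 tables under the same 3 settings. As a whole the TRBJ2 genes, which lie downstream of TRBD2, took 57.1% to 61.3% of the TRBV29 chains of the thymus, with a median of 59.5%, against 62.2% to 65.0% of the others. It was lower for TRBV29 in 13 of 14 tables, in 12 of 14 without chains of several mice and in 13 of 14 without matching barcodes.

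**Figure D3:**
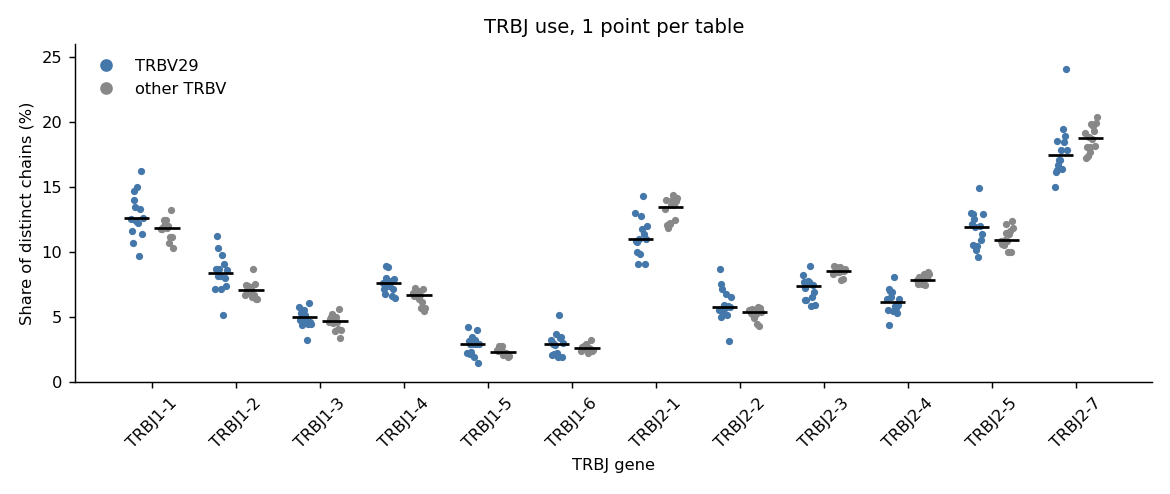
Share of each TRBJ gene among distinct TRBV29 chains (blue) and distinct chains of other V genes (grey), in percent, with 1 point per table and a line at the median of 14 tables. TRBJ2-1 and TRBJ2-4 sit lower beside TRBV29, with medians of 11.03% and 6.17%.

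The D gene calls of the files separated TRBV29 more than its J genes did. TRBD2 was called in 12.8% to 24.7% of distinct TRBV29 chains and in 29.4% to 33.3% of the others, and TRBD1 in 46.1% to 57.1% against 40.7% to 44.9%, with the same direction in 14 of 14 tables for both. The TRBD2 calls were lower in 14 of 14 without matching barcodes too. TRBD2 lies downstream of the TRBJ1 genes, and among thymus chains joined to TRBJ2 it was called in 22.7% of the TRBV29 chains, the lowest of the 19 V genes, where TRBV26 had 24.2% and TRBV4 had 55.6%. In joins to TRBJ1 genes TRBD2 was called in 6.08% of the TRBV29 chains, within a range over the V genes of 3.38% (TRBV26) to 7.93% (TRBV14). Reading the held nucleotide sequences directly against both D genes gave a longer match of at least 6 bases to TRBD1 in a median of 41.8% of the distinct TRBV29 junctions and to TRBD2 in 14.94%.

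Of the 17 germline bases of CDR3, a mean of 12.8 to 13.1 was kept, and 8.18% to 12.9% of the junctions kept all. The mean number of bases between V and J, which are D and untemplated bases together, was 9.48 to 10.4. The J genes had lost a mean of 2.81 to 3.22 bases. Joins with no base between V and J made up at most 1.08% of a table, with a median of 0.51%. Within the thymus tables the SD over junctions of the bases between V and J was 4.12 to 4.48.

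CDR3 loops of TRBV29 were short. The mean length of distinct TRBV29 chains was 13.57 to 13.75 residues in the thymus (median 13.64) and that of other TRB chains 13.99 to 14.05. TRBV29 was shorter in 14 of 14 tables, in 12 without chains of several mice, in 13 with at least 2 transcripts and in 13 without matching barcodes. Of the 19 V genes only TRBV20 had a shorter median in the thymus (13.19), and TRBV2 was the longest (14.72). TRBV31 (13.67), TRBV13-3 (13.68) and TRBV14 (13.68) lay close to TRBV29, whose SD between thymus tables was 0.062. Short loops were thus not particular to TRBV29. Loops of at most 12 residues made up 20.7% to 24.2% of the TRBV29 chains in the thymus against 14.7% to 15.9% of the others.

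**Figure D4:**
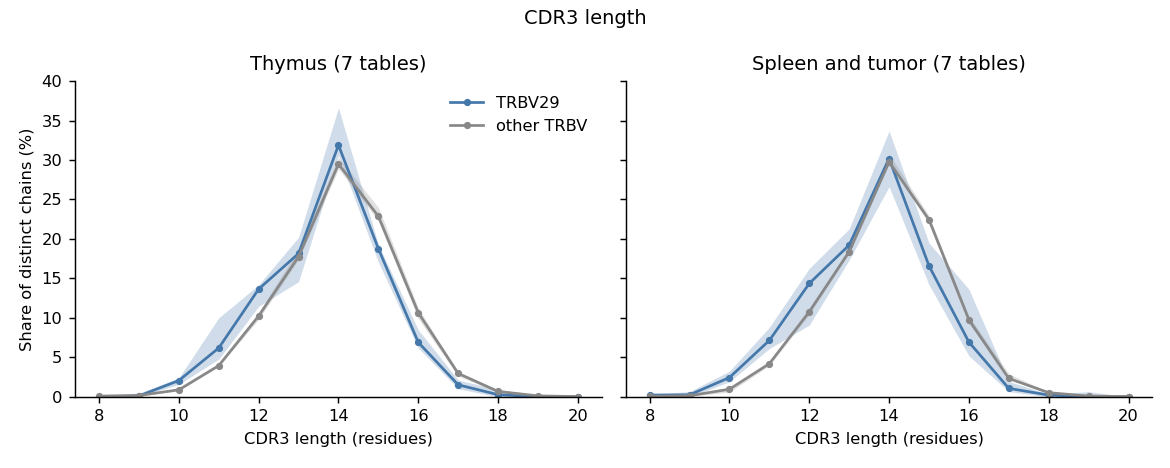
CDR3 length in residues against the share of distinct chains in percent, for TRBV29 (blue) and other V genes (grey), in 7 thymus tables (left) and 7 spleen and tumor tables (right). Lines join the medians over tables and bands span the lowest to the highest table. The TRBV29 curve is shifted to shorter loops, with a median of the means of 13.64 residues against 14.02 in the thymus.

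The residue next to the common start of the loop carried the germline end. A start of CASS was found in 80.3% to 83.3% of distinct TRBV29 chains, and leucine followed it in 31.9% to 38.3%, as the germline bases encode, against 18.3% to 21.4% of chains of other V genes. Net charge between the first 4 and the last 4 residues was less negative than in the other chains in 14 of 14 tables, with medians of -0.18 and -0.47 per chain. Mean hydropathy on the Kyte-Doolittle scale was likewise higher in 14 of 14 (-0.98 and -1.13). Charge and hydropathy were computed over fewer residues in TRBV29, whose loops are shorter.

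TRBV29 was more frequent beside the invariant α chain than beside other α chains in the thymus of every mouse. Of the paired thymus cells with TRAV11 and TRAJ18 (called invariant NKT-like here from these genes alone), TRBV29 made up 25 of 182 in mouse-155A (13.7%), 21 of 113 in mouse-155C (18.6%), 27 of 212 in mouse-160A (12.7%), 72 of 629 in mouse-160B (11.4%), 44 of 372 in mouse-160C (11.8%), 42 of 447 in mouse-164B (9.40%) and 43 of 471 in mouse-164C (9.13%). Among the other paired thymus cells of the same mice it made up 6.10%, 6.56%, 7.95%, 7.63%, 6.43%, 6.72% and 5.91%. The invariant NKT-like cells were higher in 7 of 7 mice, by 1.40 to 2.83 times, and the exact intervals were apart in 5.

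The same held for 4 of the 19 V genes (21.1%), which were TRBV13-2 (median 46.2% of the invariant NKT-like cells against 9.74%), TRBV13-1 (13.2% against 7.62%), TRBV29 (11.8% against 6.56%) and TRBV1 (9.54% against 5.15%). TRBV29 was thus the 3rd most frequent partner of the invariant chain. The difference kept its direction in 7 of 7 mice with at least 2 transcripts of both chains and without chains of several mice. It also did so without matching barcodes, and with the canonical invariant TRA CDR3 in place of the genes. That CDR3 was present in 234 of the 274 cells.

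**Figure D5:**
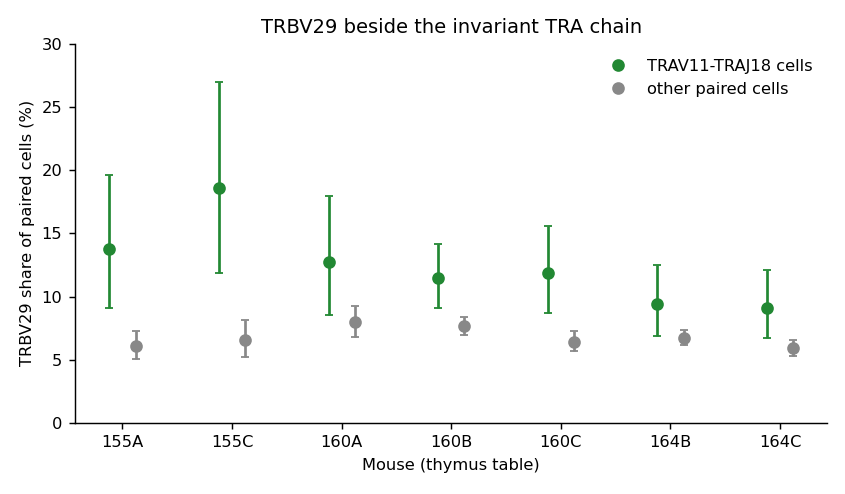
TRBV29 share, in percent, of the paired thymus cells with the TRAV11-TRAJ18 chain (green) and of the other paired thymus cells (grey) in each of 7 mice, with exact 95% intervals for counting error. The green point is the higher of the pair in every mouse, from 9.13% to 18.6% against 5.91% to 7.95%.

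The 274 invariant NKT-like TRBV29 cells of the thymus carried 271 distinct chains, and no pair of CDR3s was seen in more than 2 cells. Their loops were longer than those of the other paired TRBV29 cells in 7 of 7 mice (13.8 to 14.5 residues against 13.5 to 13.8). TRBJ2 genes made up 66.1% of their chains against 57.4%, with the higher value in 6 of 7 mice. Over the pooled chains TRBJ2-3 stood at 12.5% against 7.19% and TRBJ2-4 at 11.1% against 6.49%, while TRBJ2-7 stood at 14.4% against 17.1%. CASS followed by leucine was about as frequent in both (34.7% and 34.0%). Over the pooled cells the invariant NKT-like ones also had fewer TRB transcripts per cell, with a mean of 2.43 against 3.98. This was not computed within mice, whose thymus means for all TRBV29 barcodes ran from 2.34 to 3.48.

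Outside the thymus this pairing was rare. Between 0 and 17 cells per spleen or tumor table had the TRAV11-TRAJ18 chain, and 7 of them in all carried TRBV29, namely 1 in the mouse-155A spleen, 1 in the mouse-160B tumor, 2 in the mouse-160C tumor and 3 in the mouse-164C tumor. Shares in tables of this size were not compared. No TRBV29 cell had the TRAV1-TRAJ33 chain of mucosal-associated invariant T cells.

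Without the invariant cells, distinct TRBV29 pairs most often used TRAV12-1 (median 9.26% over 14 tables), TRAV6-6 (6.85%), TRAV3-1 (6.83%), TRAV10 (4.53%) and TRAV12-2 (4.36%). TRAV genes of the mouse have near-identical duplicated copies, so the split between copies is uncertain. With the invariant cells included and cells counted, TRAV11 entered the leading 5 at a median of 4.93% over the 14 tables, and at 15.6% in the thymus. The median over all tables describes no single tissue. Invariant NKT-like cells made up 8.06% to 22.1% of the paired TRBV29 cells in thymus tables, but at most 0.42% in spleens and 1.6% in tumors. TRAV12-1 and TRAV3-1 were as common beside other TRB chains (8.97% and 6.51%). TRAV6-6 was not: it had 4.38% there, and was higher beside TRBV29 in 12 of 14 tables. It was the 1 of 32 TRAV genes higher in that many tables (3.12%), while 5 of 32 (15.6%) were lower in at least 12. Of the 19 V genes, TRBV29 had the highest TRAV6-6 median. Without chains of several mice and without matching barcodes the count was 13 of 14 in each case.

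Among the TRAJ genes, TRAJ22 stood out, and it was picked after its values were seen. It was found in 225 of 3825 distinct TRBV29 pairs. In the thymus its share beside TRBV29 ran from 1.37% in mouse-155C to 6.90% in mouse-155A, whereas beside other TRB chains it ran from 8.20% to 9.68%. In the spleens it was 5.13% and 5.21% against 7.58% and 7.10%. In the tumors it ran from 3.42% against 6.35% in mouse-164B to 9.51% against 10.1% in mouse-164C.

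TRAJ22 was thus lower beside TRBV29 in 14 of 14 tables, the 1 of 36 TRAJ genes for which this held (2.78%), although the exact interval of the TRBV29 share lay below the other value in only 5 tables. It remained lower in 14 of 14 without chains of several mice, with at least 2 TRB transcripts and without matching barcodes. TRBV29 had the lowest median of the 19 V genes (5.17%, with TRBV1 next at 6.00% and TRBV4 highest at 12.4%). TRAJ26 showed the opposite order, with 5.26% beside TRBV29 and 3.92% beside other chains, higher in 12 of 14 tables (1 of 36, 2.78%). At the same count in the lower direction there were 2 of 36 (5.56%), TRAJ22 and TRAJ53. TRAJ26 was higher in 10 of 14 tables with at least 2 transcripts, in 10 without chains of several mice and in 11 without matching barcodes. TRBV29 had the highest TRAJ26 median of the 19 V genes, with TRBV5 next at 5.02%.

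Repeated TRBV29 clonotypes were most frequent in tumors, as were those of other V genes. In 3 of the 7 thymus tables no pair of TRBV29 CDR3s was seen in more than 1 cell, and in the others the leading pair had 2, 7, 6 and 10 cells. In the spleens it had 2 and 3 cells. Cells whose pair was seen once made up 94.4% to 100% of the paired TRBV29 cells of the thymus and 93.0% and 98.3% of those of the spleens. In the tumors they ran from 16.3% in mouse-160A over 45.1% in mouse-164B, 48% in mouse-160C and 64.6% in mouse-160B to 89.2% in mouse-164C. For the other V genes the values of the same tumors were 20.8%, 49.8%, 28.6%, 79.5% and 76.5%, so that TRBV29 was below them in 3 tumors and above them in 2. In the thymus the others had 94.5% to 99.6%.

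The leading paired clonotype of TRBV29, taken as the commonest pair of TRA and TRB CDR3s, differed between the tumors. In mouse-160A it was chain 4 with a TRAV12-1 and TRAJ6 chain, in 77 of 135 paired TRBV29 cells, or 57.0% (exact 95% interval 48.2% to 65.5%). In mouse-160B it was chain 2 with TRAV5-4 and TRAJ42, in 136 of 766 cells (17.8%). In mouse-160C it was a TRBJ2-3 chain with TRAV9-4 and TRAJ48, in 25 of 125 cells (20%). The latter β chain is shown beside chain 2 because both keep 10 germline V bases and hold a stretch of TRBD2; capitals again mark the bases between V and J.
leader of the mouse-160C tumor: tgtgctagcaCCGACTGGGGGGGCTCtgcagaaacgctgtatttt
It shares 12 bases in a row with TRBD2, and chain 2 shares 11.

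In mouse-164B the leader was chain 5 with TRAV12-2 and TRAJ13, in 57 of 574 cells (9.93%). In mouse-164C it was chain 1 with TRAV6D-7 and TRAJ30, in 63 of 913 cells (6.90%). Among the paired clonotypes of all V genes in its tumor, the TRBV29 leader ranked 1st in mouse-160B, 6th in mouse-160A and mouse-164B, 8th in mouse-164C and 19th in mouse-160C. Chain 1 had the most varied partners of the 5. Of its 182 paired barcodes in that tumor 34.1% had the leading TRA chain with the same V and J calls, and 99 different TRA CDR3s were recorded. The leading TRA chain covered 92.8% of 83 paired barcodes for chain 4, 81.4% of 167 for chain 2 and 80.3% of 71 for chain 5. Chain 3 was paired in only 39 of its 210 barcodes in the mouse-160C tumor, in 38.5% of them with 1 TRAV1 and TRAJ26 chain. In that tumor 16.9% of all TRBV29 barcodes were paired, against 28.5% of the others, which was the lowest pairing of TRBV29 in any table.

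Some TRBV29 clonotypes were found in both tissues of a mouse. There were 31 such pairs of CDR3s, or 18.2% of the 170 found over all V genes. Among all paired cells of a table TRBV29 made up a median of 7.18%, with a range of 3.33% to 9.74%. The TRBV29 pairs were 15 of 70 shared pairs in mouse-164B, 7 of 48 in mouse-160B and 5 of 18 in mouse-160A. They were 2 of 2 in mouse-155A, 1 of 15 in mouse-155C, 1 of 11 in mouse-164C and 0 of 6 in mouse-160C. The 18.2% thus rests on counts that differ widely between mice. None of the 31 was seen in another mouse, and none of their thymus cells shared later wells and sublibrary with a cell of the second tissue. However, only 33.3% to 44.8% of the outside barcodes of chains 1 to 5 had such a match. Some of the 31 pairs had no thymus cell with more than 1 TRB transcript. The pair of mouse-164C was one of these, and its TRB chain was chain 1, with 1 thymus and 1 tumor cell. How the shared pairs arose was not tested.

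In mouse-164B the shared TRBV29 pairs covered 27 of 521 paired thymus cells (5.18%) and 209 of 574 tumor cells. The pair of chain 5 had 3 thymus and 57 tumor cells. A TRBJ2-5 chain with TRAV12-1 and TRAJ26 had 6 and 38, and was also the leading TRBV29 clonotype of that thymus. A further TRBJ2-5 chain of the same mouse was shared with 2 TRA chains, with 1 thymus and 28 tumor cells for one and 2 and 14 for the other. Both TRA chains were recorded together, as first and second chain, in 3 of its 4 paired thymus barcodes and in 21 of its 51 paired tumor barcodes. Outside mouse-164B the largest tumor counts of shared TRBV29 pairs were 8 and 6 cells, both in mouse-160B. In the spleens the shared pairs had 1 to 3 cells.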

How the data were processed

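The authors processed the reads of the 8 multiplexed sublibraries against GRCm39, per the labels; the receptor assembly software version is not given in the sources used here. They deposited, for each of 14 mouse and tissue tables, whole-number transcript counts per receptor chain of each barcode, and chain annotations with V identity as a percent. Their clonotype tables were not used, since clonotypes were rebuilt from the barcodes. Annotations held here covered all barcodes of 11 tables, and part of those of the mouse-160B thymus, mouse-164B thymus and mouse-164C tumor, so that 11798 of 14436 TRBV29 cells had a nucleotide CDR3.

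Of 253531 barcodes, the 24019 marked by the authors as multiplets and 40968 others without a TRB chain were left out; no other doublet caller was run. Shares were computed per table with exact Clopper-Pearson intervals (95%, scipy 1.17.1), which cover counting error only. Cells of a table are not replicates and the tables carry no labelled group, so no test between groups was run. Comparisons give counts of mice or tables. The only formal check was one for tables far from their group, given below. Invariant NKT-like cells have TRAV11 or TRAV11D with TRAJ18. A paired clonotype is a TRA and TRB CDR3 pair. V bases kept are the longest prefix shared with germline TRBV29, and J bases the longest suffix shared with the J gene (samtools 1.23.1, GENCODE annotation). The counting step was tested on simulated data with known shares. The check of the junction step on made-up joins could not fail by its design. It therefore does not tell how often chance matches were counted as V or J bases.

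Named were the 3 TRBJ and 5 TRAV genes with the highest median share, the most frequent paired clonotype of a table, the CDR3s found in most mice, clonotypes of both tissues of a mouse, and the 3 TRBV genes (median of at least 1%) most correlated with TRBV29. Members and lists were chosen with earlier results of these data known. Alternatives counted distinct chains, transcripts or paired barcodes, required at least 2 transcripts, left out chains of more than 1 mouse, or left out each sublibrary. Added after seeing the data were leaving out, of barcodes that share chain, later wells and sublibrary across tables, those with fewer transcripts, and 2 settings on distinct chains.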

Additional observations from a re-analysis of the deposited data

Results flagged for a closer look

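In 15 sets of tables checked for a value far from its group, the share of paired TRBV29 cells in the leading clonotype stood apart in the thymus and in the tumor. It was 5.46% in the mouse-160A thymus, where the next highest thymus had 2.11%, and 57.0% in the mouse-160A tumor, where the next highest tumor had 20%. The clonotypes differ: TRBJ2-7 with TRAV12-1 and TRAJ6 in the thymus, TRBJ1-1 with TRAV12-1 and TRAJ6 in the tumor. The check divided the gap to the nearest value by the range of the set, which gave 0.65 in the thymus and 0.74 in the tumor. About 1 in 20 such checks is expected to pass by chance. That rate holds for normally distributed values, which was not checked.

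TRBV29 was also recorded as the second TRB chain of 1812 barcodes that no comparison above used. It made up 7.60% of the 23835 second TRB chains, and a median of 7.76% in the single tables.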

How the results depend on the processing

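Both tissues of a mouse were set side by side as values, and no paired test was run. Of 66 values recomputed with every sublibrary kept, 45 stayed within a set limit. The limit was 1 SD between tables, or for counts a change of at most 1.5 times. For the spleen, with 2 tables, it was instead taken from the exact intervals, at 0.62 percentage points. The SD between the 2 spleens was smaller, at 0.075 percentage points, so the limit was wider there. For the leading tumor clonotype (17.8%) the SD was 20.1 percentage points. No fall could exceed that limit, and rises to 32.1% and 31.3% were counted as within it. The thymus median share of 7.16% was 5.83% by transcripts, 6.56% in paired cells without TRAV11-TRAJ18, 6.34% with at least 2 TRB transcripts and 6.10% without chains of several mice. In settings chosen after seeing the data it was 6.08% by distinct chains of single mice and 6.36% by distinct chains with at least 2 transcripts. The spleen median of 8.61% was 7.18% in paired cells, 7.21% in paired cells without TRAV11-TRAJ18, 7.51% with at least 2 transcripts, 7.84% by distinct chains of single mice and 7.61% by distinct chains with at least 2 transcripts. The count of mice with a lower share in the second tissue was 2; it was 3 in paired barcodes, 0 by distinct chains and 1 by transcripts, without chains of several mice, by distinct chains of single mice and by distinct chains with at least 2 transcripts. The TRBJ2 share of 59.5% was 61.8% by cells, 56.3% in paired cells without TRAV11-TRAJ18 and 55.95% without chains of several mice. The mean CDR3 length of 13.64 was 13.57 and 13.72 in the latter 2 settings. The cause was not tested.

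Leaving out each sublibrary in turn gave 6.84% to 7.24% (thymus share), 8.51% to 8.71% (spleen), 8.15% to 8.44% (tumor), 2 mice throughout, 11.4% to 12.2% and 6.44% to 6.70% (TRBV29 share of invariant NKT-like and of other cells), 58.6% to 60.1% (TRBJ2), 13.60 to 13.67 residues, and 17.4% to 18.4% (leading tumor clonotype, 17.8%). That last share was 32.1% with at least 2 transcripts of both chains and 31.3% by transcripts. Depth limits the tables with few invariant NKT-like cells: 0 of 11 in the mouse-155C spleen has an exact upper limit of 28.5%.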
